A study of Mus musculus with 112 samples.

Results

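The effect of cigarette smoke (CS) on sperm DNA methylation (DNAme) was examined in mice that lack NRF2. The comparison took the library columns of 2 groups by their labels, smoked Nrf2-/- F0 sperm (n = 9) and control Nrf2-/- F0 sperm (n = 10), which made 19 of the 112 samples in the series. Both groups carried the strain label NRF-/-, with no working copy of Nfe2l2, the gene of NRF2, and the control males carried the same mutation without CS. By the study's methods, the Nrf2-/- mice had a C57BL/6J background. The genotype is given for the whole animal and not for sperm alone. Males were young adults when exposure began, CS came from a smoking machine over successive cycles of spermatogenesis, and sperm were taken from the epididymis and vas deferens and cleared of somatic cells by lysis. The methods give a collection within days of the end of CS for WT males and do not state the day for Nrf2-/- males. Unexposed and CS-exposed wild type (WT) males (n = 10 and n = 9) and prefrontal cortex of F1 sons of control and smoked Nrf2-/- sires (n = 8 each) were used for comparison. WT males left to recover after CS (recovery 1, 2 and 3; n = 9, 10 and 10) entered the fit across F0 sperm groups, where they help set the spread, and the counts over all WT libraries. The sons had CAST/EiJ mothers and a single targeted allele. The labels number the samples as replicates, and p-values measure the spread between these libraries.

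NRF2 is a transcription factor that KEAP1 holds in the cytoplasm and marks for degradation until oxidants or electrophiles modify KEAP1. NRF2 then enters the nucleus, pairs with small MAF proteins and binds antioxidant response elements near genes for glutathione synthesis, thioredoxin and quinone reduction and detoxification. CS is a rich source of such oxidants, and males without NRF2 have a weakened response to them. The study asked whether CS would change the sperm methylome further once this defence was missing. In sperm, most CpG-poor DNA is almost fully methylated and most CpG-rich promoters are unmethylated, and few regions lie between these states.

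The assay was reduced representation bisulfite sequencing (RRBS), where DNA cut with MspI (at CCGG) and TaqαI (at TCGA) is treated with bisulfite so that unmethylated cytosines read as thymine. Each value is the percent of reads at 1 cytosine of a CpG that stayed unconverted. Sperm of a sample were read as a pool and carry 1 copy of each cytosine, so the percent estimates the share of sperm methylated there. A cytosine was scoreable with a value in at least 4 libraries of each F0 sperm group (1023708 cytosines), and scoreable cytosines at most 100 bp apart formed 62831 regions of at least 3 cytosines and above 50 bp. Changes are given in percentage points, smoked minus control.

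The labels were checked first. At 4 cytosines of Nfe2l2 (chromosome 2, positions 75676209 to 75676369) all 48 WT F0 sperm libraries had a value and 0 of the 19 Nrf2-/- libraries did, whereas at 2 other cytosines of the gene all 19 had one. The promoters of Snrpn and Peg3, which are methylated on the maternal allele alone, had medians of 1.05% and 0.529% in control and 0.464% and 0.267% in smoked Nrf2-/- libraries. Cytosines upstream of H19, where the paternal allele is methylated, had medians of 95.4% and 93.2%. In the window searched upstream of Rasgrf1 the medians were 64.2% and 62.4%. Promoters of the germ cell genes Ddx4 and Dazl had medians between 0.526% and 1.12%.

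Depth per library is unknown, since the files hold no read counts, so coverage is described by how many positions each library covered. This number ranged from 966374 to 1718943 in control and from 901592 to 1547591 in smoked Nrf2-/- libraries. Smoked column 3 stood apart, with the most positions of its group and a mean over all its positions of 27.4%, below the 33.3% to 39.5% of the other smoked libraries. The values without it are given beside mean DNAme, the spread, the count of calls and the Tspan17 region.

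The stretches below carry the regions that passed the adjusted threshold, and they are shown because the region results turn on them. They are on the forward strand of mm10, with 5 bases added at each end. A capital C is a scoreable cytosine of this strand, and a capital G stands opposite a scoreable cytosine of the other strand.
Nog region, chr11:89269161-89269277: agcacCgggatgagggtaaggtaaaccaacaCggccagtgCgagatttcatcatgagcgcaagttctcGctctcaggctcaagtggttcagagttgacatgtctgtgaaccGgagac
Slc25a5-ps region, chr14:11180510-11180653: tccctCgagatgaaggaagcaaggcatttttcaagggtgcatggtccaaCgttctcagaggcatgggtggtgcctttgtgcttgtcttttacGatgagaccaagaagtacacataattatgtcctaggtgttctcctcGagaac
Erg region, chr16:95631903-95631983: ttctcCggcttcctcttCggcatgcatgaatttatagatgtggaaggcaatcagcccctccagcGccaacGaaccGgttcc
Tspan17 region, chr13:54805213-54805507: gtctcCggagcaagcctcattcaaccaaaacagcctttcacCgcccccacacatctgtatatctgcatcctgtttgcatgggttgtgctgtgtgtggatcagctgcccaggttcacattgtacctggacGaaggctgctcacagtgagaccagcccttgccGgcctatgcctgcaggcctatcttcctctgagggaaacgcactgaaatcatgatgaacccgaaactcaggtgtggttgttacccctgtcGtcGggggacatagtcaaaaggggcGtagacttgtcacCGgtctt
The Slc25a5-ps stretch holds 2 TCGA sites and no CCGG, and the other stretches hold 2 or 3 CCGG sites and no TCGA. Of all regions, 66.4% held CCGG and 53.2% held TCGA. The core of the antioxidant response element, searched as TGACNNNGC on both strands in 300 bp around the middle of each region, was found at 0 of these 4 regions and at 11.5% of all regions.

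Each library received 1 value per region, adjusted for which of its cytosines had a value there, and limma fitted these values over all 7 F0 sperm groups. Rounding in this adjustment shifted the values of a region by a common amount, before they were cut at 0% and 100%. For example, smoked column 6 had 100% at all 5 cytosines of the Nog region and a region value of 99.4%. Differences between groups lose this shift except where values were cut. Levels near 0% or 100% are less exact than their digits. Plain means, without the adjustment, gave the same 4 calls. At a Benjamini-Hochberg adjusted p below 0.05, 4 of 62830 regions differed between smoked and control Nrf2-/- sperm (0.00637%). Lower after CS were 3 of them, near Nog and Erg and in Slc25a5-ps, and 1 was higher, near Tspan17. At an unadjusted p below 0.05, 3620 regions passed (5.76%), 1487 higher (2.37%) and 2133 lower (3.39%). No call survived a fit of the 2 Nrf2-/- groups alone, in which limma gave 0 adjusted calls and 2561 regions at an unadjusted p below 0.05, or the removal of smoked column 3, which gave 0 and 3434. The differences themselves were unchanged in the fit of the 2 groups. Without smoked column 3 they were -52.83 points at Nog, -8.35 at Slc25a5-ps, -7.76 at Erg and 4.77 at Tspan17. At Erg that library had 75% at the first and the second cytosine, too few cytosines for a region value. Among the 56869 regions with at least 7 libraries in each group, 0 had groups that did not overlap (0%).

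The largest change lay in an intergenic region of 107 bp and 5 cytosines (chr11:89269166-89269272), 33060 bp from the start of Nog, the nearest protein-coding gene. Nog encodes Noggin, a secreted protein that binds bone morphogenetic proteins and keeps them from their receptors. Its control values were 0%, 3.48%, 60.5%, 95.5%, 96.1%, 96.1%, 96.1%, 98.9% and 98.9%. Its smoked values were 1.09%, 1.51%, 1.65%, 2.5%, 3.43%, 4.94% and 99.4%. All but 1 library were thus either almost unmethylated or almost fully methylated: 2 of 9 control and 6 of 7 smoked libraries lay below 15%, and 6 and 1 lay above 85%. The means were 71.7% ± 41.5 (SD, n = 9) and 16.4% ± 36.7 (n = 7), a difference of -55.37 points (SE 10.55, limma adjusted p = 0.046), and the groups overlapped over nearly their whole range. The call held in 3 of 16 fits that left out 1 library with a value there.

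In the Nrf2-/- groups, the cytosines of the Nog region shown above had similar levels within most libraries. Control column 2 had 0% at all 5 cytosines and smoked column 6 had 100% at all 5, while control column 8 had 57.1%, 50% and 73.3% at the 3 it covered. In control column 6, the cytosines spanned 0% to 8.33%, and in the 6 smoked libraries below 15% they spanned 0% to 20%. Control and smoked column 1 covered the first cytosine alone, at 100% and 87.5%. Both received no region value, and the level of their other cytosines is not known. Of all 62831 regions, 1 had at least 4 Nrf2-/- libraries below 15% and at least 4 above 85%, and it was the Nog region. This pattern was noticed after the values were seen.

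In WT F0 sperm the Nog region was methylated in every library with a value: 0 of 41 lay below 15%, and the lowest value was 77.2%. At the first cytosine alone, 1 control WT library had 0%, whereas the lowest control WT value at the other cytosines was 80%. Control WT had 94.5% ± 7.30 (n = 8) and smoked WT had 98.0% ± 1.51 (n = 8). In F1 prefrontal cortex, sons of control Nrf2-/- sires spanned 94.5% to 97.2% and sons of smoked Nrf2-/- sires 91.2% to 100% (n = 8 each). The low region values thus appeared in Nrf2-/- F0 sperm of both exposure groups and in none of these other libraries. The labels give no litter or family of the Nrf2-/- males, so exposure and descent cannot be told apart at this region. The difference of the smoke change between genotypes was -58.81 points there and did not pass (SE 14.85, limma adjusted p = 0.905).

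**Figure D1:**
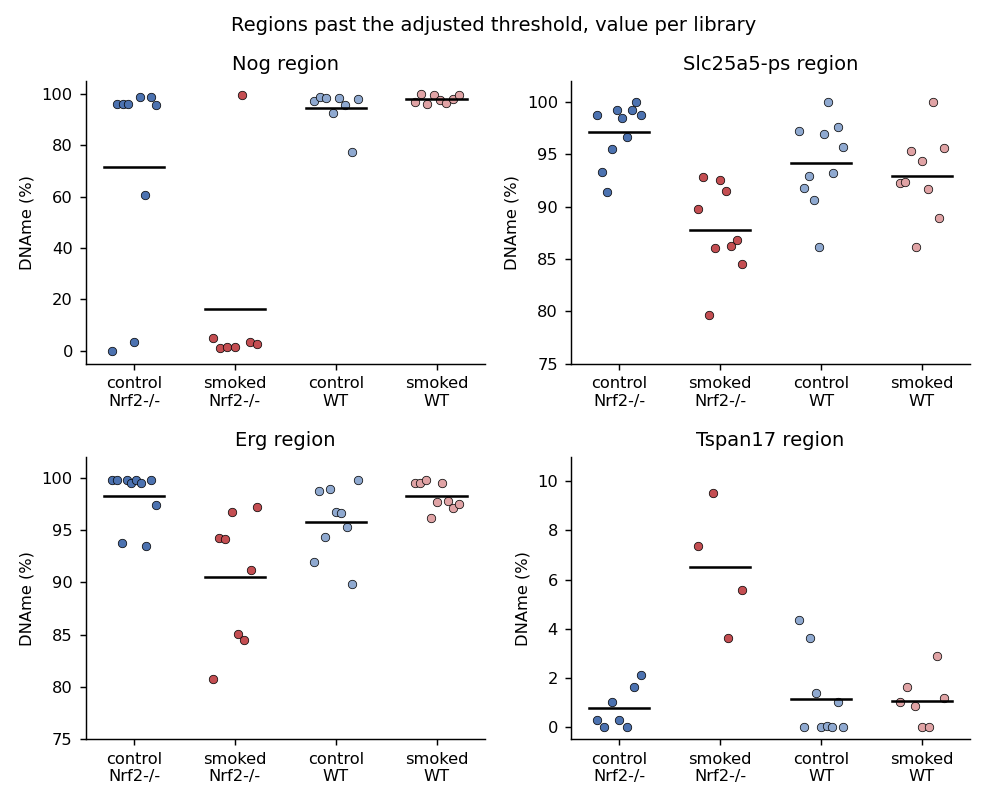
DNAme (%) of each library at the 4 regions past the adjusted threshold; every point is a library, the black line is the group mean, and the vertical axes differ between panels. At the Nog region 6 of 7 smoked Nrf2-/- libraries lay below 15%, against 2 of 9 control Nrf2-/- libraries, and all WT libraries lay above 77%.

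The second region that fell lay within Slc25a5-ps, a processed pseudogene of the gene for an ADP/ATP carrier of the inner mitochondrial membrane (chr14:11180515-11180648, 134 bp, 4 cytosines, within 1 kb of the annotated start). Reads of a pseudogene can be shared with near-identical copies elsewhere, so its values may be less certain than those of unique sequence. Such sharing was not tested. The control values were 91.4%, 93.3%, 95.5%, 96.7%, 98.5%, 98.8%, 98.8%, 99.2%, 99.2% and 100%. The smoked values were 79.7%, 84.6%, 86.0%, 86.2%, 86.8%, 89.8%, 91.5%, 92.6% and 92.8%. All 9 smoked libraries lay below the control mean, and 3 of them reached into the lower end of the control range. The means were 97.1% ± 2.88 (n = 10) and 87.8% ± 4.31 (n = 9), and the difference was -9.36 points (SE 1.79, limma adjusted p = 0.046), a call that held in 6 of 19 fits with 1 library left out. Each of its 4 cytosines had a lower mean after CS, with the largest gap at the second, 95.0% against 81.2%. WT libraries had 94.2% ± 4.09 without and 92.9% ± 4.03 with CS (n = 10 and n = 9), between the Nrf2-/- groups.

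The third lay between genes, 45315 bp from the start of Erg, an ETS family transcription factor of endothelial and blood lineages (chr16:95631908-95631978, 71 bp, 5 cytosines). The control values were 93.5%, 93.7%, 97.4%, 99.5%, 99.5% and 99.7% in each of the remaining 5 libraries. Those 5 libraries had 100% at all 5 cytosines, so the 99.7% carries the shift from rounding. The smoked values were 80.8%, 84.5%, 85.05%, 91.2%, 94.2%, 94.3%, 96.7% and 97.2%. The controls were close to full methylation, whereas 3 of 8 smoked libraries lay between 80.8% and 85.05% and the others overlapped the control range or came close to it. The lowest, smoked column 1, had 43.8% at 1 cytosine and 100% at the others it covered. In smoked columns 6 and 7 every covered cytosine lay between 82.6% and 87.0%. The first and the second cytosine each had a value in 7 control and 4 smoked libraries. The means were 98.2% ± 2.54 (n = 10) and 90.5% ± 6.22 (n = 8), and the difference was -7.76 points (SE 1.42, limma adjusted p = 0.0304). The call held in 9 of 18 fits that left out 1 library with a value. In WT sperm the means were 95.8% ± 3.32 and 98.3% ± 1.32 (n = 9 each), a difference of 2.48 points that did not pass (limma unadjusted p = 0.0847, adjusted p = 1). The difference of the smoke change between genotypes was -10.24 points (SE 2.00) and did not pass (limma adjusted p = 0.113).

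The region that rose lay 15623 bp from the start of Tspan17, a tetraspanin membrane protein (chr13:54805218-54805502, 285 bp, 9 cytosines, intergenic). The control values were 0%, 0%, 0.275%, 0.300%, 1.03%, 1.62% and 2.12%, and the smoked values were 3.62%, 5.59%, 7.39% and 9.52%. The groups did not overlap among libraries with a value, but 4 of 9 smoked libraries had one. Smoked columns 1, 5 and 7 covered too few cytosines for a region value. They had 0% at each of the 3, 3 and 2 they covered. Smoked column 4, also without a region value, had 33.3% at 1 cytosine and 0% at the others it covered. Smoked column 8 covered none. Of the control libraries without a region value, columns 1 and 9 had 17.6% and 11.8% at 1 cytosine each, and column 7 had 0% throughout. The separation thus holds only among libraries that covered 50% of the cytosines. Each of the 4 smoked region values rested on 1 to 3 cytosines between 12.5% and 33.3%, with 0% at its other cytosines. The raised cytosines were not the same in all 4. The means were 0.764% ± 0.843 (n = 7) and 6.53% ± 2.52 (n = 4), and the difference was 5.77 points (SE 0.84, limma adjusted p = 0.00151). By the rule of size described below it was not called, with a change of 4.01 points and 22.2% of its cytosines changed. Without smoked column 3, which held the highest value, the adjusted p was 0.0635, and over all alternatives it ranged from 4.25e-05 to 0.956. With regions joined at 300 bp the difference was 2.09 points (limma adjusted p = 0.804). WT libraries had 1.16% ± 1.70 (n = 9) without and 1.08% ± 1.00 (n = 7) with CS.

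An exact permutation test over the libraries, two-sided, unadjusted and added after the 4 regions were known, gave p = 0.0286 at the Nog region, where the values fell into separate levels. It gave p = 8.66e-05 at Slc25a5-ps, p = 0.00137 near Erg and p = 0.00303 near Tspan17. Since the regions were picked by the same contrast, these values describe the regions and do not test them anew.

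Mean DNAme did not separate the groups. Over scoreable cytosines it was 36.8% ± 1.502 in control (n = 10) and 36.1% ± 2.11 in smoked Nrf2-/- sperm (n = 9), a difference of -0.769 points (exact permutation test, two-sided, p = 0.374). Smoked libraries spanned 32.3% to 39.6% and control libraries 35.0% to 40.4%, with smoked column 3 the lowest. The difference was -0.302 points without smoked column 3 (exact permutation p = 0.693) and -0.372 points without control column 6 (exact permutation p = 0.64), the highest control library. Over all positions that a library covered, which differ between libraries, it was -2.06 points (exact permutation p = 0.16), and -0.998 points without smoked column 3 (exact permutation p = 0.347). Over the 427836 scoreable cytosines with a value in all 19 libraries, the difference was -0.242 points (exact permutation p = 0.41).

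No class of region passed either. Promoter regions (within 1000 bp of an annotated start, 24327 regions) averaged 5.91% ± 0.299 in control and 5.86% ± 0.374 in smoked libraries. Regions of 25 to 75% in control WT (4137 regions) averaged 48.6% ± 2.19 and 49.4% ± 1.32, and those above 75% averaged 93.8% ± 0.503 and 93.5% ± 0.865. Chromosome X had 40.6% ± 0.985 and 40.5% ± 1.19. Of 13 classes by level, annotation, CpG density and chromosome, the largest difference was 0.73 points, and the smallest exact permutation p was 0.286 (0.938 adjusted over the 13). The mean percent at mitochondrial cytosines, where little methylation is expected, was 2.62% ± 2.04 and 4.04% ± 3.60 over 5 to 87 positions per library (exact permutation p = 0.311).

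The spread between libraries of a group was close in both groups. The mean absolute difference in region percent between a library and the others of its own group was 3.10 ± 0.248 points in control (n = 10) and 3.13 ± 0.280 in smoked Nrf2-/- libraries (n = 9; exact permutation p = 0.784). Over the 38636 regions with a value in all 19 libraries it was 2.90 ± 0.270 and 3.01 ± 0.293 (exact permutation p = 0.425). The difference of 0.0336 points turned to -0.0302 points when smoked column 3 was left out, and its sign turned in 8 of 19 such comparisons. The values ranged from -0.117 points without smoked column 1 to 0.184 points without control column 8 (exact permutation p = 0.316 and p = 0.0955). Each library's value depends on the other libraries of its group. The test regrouped these values without computing the distances anew, so its p-values for the spread are approximate.

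**Figure D2:**
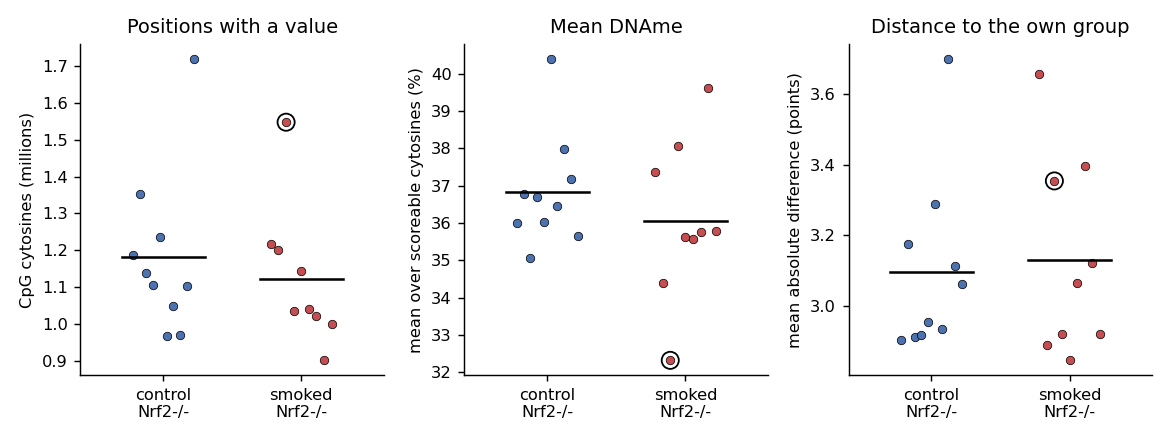
Number of CpG positions with a value, mean DNAme (%) over scoreable cytosines, and mean absolute difference to the other libraries of the own group (percentage points) for each Nrf2-/- library; points are libraries, black lines are group means, and the ring marks smoked column 3. The groups overlap in each panel, and smoked column 3 has the lowest mean DNAme, 32.3%.

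A rule of size with the study's thresholds was applied as well. The joining distance was set here, the cytosines of both strands of a CpG counted separately, and read coverage could not be checked. A region counted as a differentially methylated region (DMR) where 33.3% or more of the scoreable cytosines moved over 5 points and the region mean did so too. The rule does not weigh a change against how libraries differ. Of 62831 regions, 2341 were DMRs (3.73%), 1158 higher (1.84%) and 1183 lower (1.88%) after CS. In WT sperm the same rule gave 1642 DMRs (2.61%). Of single cytosines, 12.2% changed by more than 5 points in Nrf2-/- sperm, 49041 higher and 75357 lower.

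DMRs were small changes at regions where libraries differ among themselves. The median change was 6.75 points in the higher and -6.70 points in the lower DMRs. The median SD between libraries at DMRs was 8.81 points in control and 9.26 in smoked Nrf2-/- sperm, against 1.78 and 1.82 over all regions. At 44.5% of DMRs the change was smaller than the SD of both groups, and in the median DMR 77.8% of the smoked libraries lay on the side of the change. The unadjusted limma p was below 0.05 at 34.5% of DMRs. A mean change above 20 points was reached by 18 DMRs, 5 of them higher and 13 lower. DMRs were also covered by fewer libraries: 74.4% had values in at least 7 libraries of each group, against 90.5% of all regions.

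DMRs were rare at promoters and frequent at intermediate methylation. Of promoter regions 0.987% were DMRs, against 4.37% of exonic, 4.84% of intronic and 6.57% of intergenic regions. By the level in control WT sperm, which this contrast did not use, 1.44% of regions below 25%, 23.4% of those from 25 to 50%, 23.5% of those from 50 to 75% and 3.66% of those above 75% were DMRs. Regions of 3 or 4 cytosines were DMRs in 5.97% of cases, and regions of 10 or more in 0.456%. The median SD in control libraries was 0.750 points at promoters and 8.10 points at regions from 25 to 50%, and its part in these shares was not tested.

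The direction differed between classes, as a count with no test. Intergenic DMRs were higher at 594 and lower at 446 regions, intronic DMRs at 304 and 414. Among the 4913 regions that were at least 50% soft-masked repeat sequence, 8.43% were DMRs, 253 higher and 161 lower, against 3.33% of the other regions, 905 higher and 1022 lower. Higher DMRs started at a median of 44.6% in control libraries and lower DMRs at 77.6%. In control WT sperm the medians at the same regions were 50.02% and 72.9%, between the control and smoked Nrf2-/- medians of either set (52.5% and 68.5% after CS). Since the regions were chosen by the difference of the Nrf2-/- groups, no conclusion is drawn from this order, and its cause was not tested. The control WT level was nearer to the smoked than to the control Nrf2-/- level at 51.1% of DMRs and at 49.6% of all regions. DMRs had a median CpG observed/expected ratio of 0.587 against 0.729 over all regions, and they lay a median of 35159 bp from the nearest protein-coding start against 8807 bp. The sequence TGACNNNGC was found in the 300 bp around 10.6% of higher and 10.5% of lower DMRs, near the 11.5% of all regions.

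**Figure D3:**
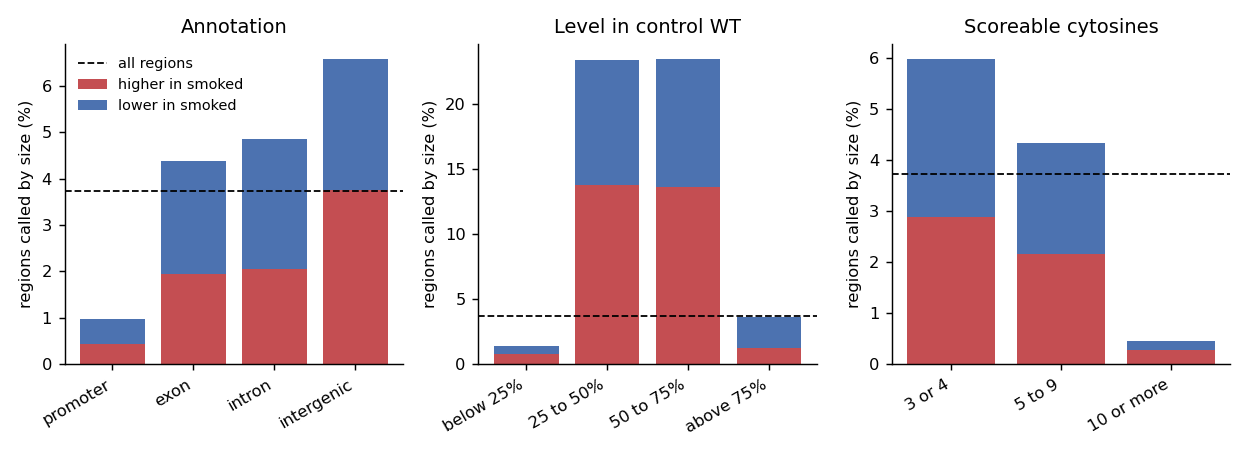
Percent of regions called by size in smoked against control Nrf2-/- sperm, by annotation, by level in control WT sperm and by number of scoreable cytosines; bars stack higher (red) and lower (blue) DMRs, and the dashed line is the share over all regions. The share was 0.987% at promoters, 6.57% between genes and 23.4% to 23.5% at regions from 25 to 75% in control WT, against 3.73% overall.

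Beside the Nog region, the DMRs with the largest negative changes among those with at least 7 libraries in each group lay near Pltp, at Cct8l1, near Gm4792 and in Kcnh1. None of them passed the adjusted threshold. The intergenic Pltp region (chr2:164861673-164861766, 6 cytosines) lies 3962 bp from the start of the gene of phospholipid transfer protein, which moves lipids between lipoproteins. Its control values ran from 35.7% to 95.4% with a median of 59.2% (n = 10), and its smoked values from 17.3% to 46.5% with a median of 35.5% (n = 7). The smoked libraries lay in and below the lower part of the control range, with a difference of -25.83 points (SE 6.34, limma adjusted p = 0.423), and WT sperm had 53.8% ± 5.89 and 52.96% ± 9.24 (n = 6 and n = 7).

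Cct8l1 is a gene related to the subunits of the CCT chaperonin, and its region covered the promoter and coding sequence (chr5:25516275-25516355, 5 cytosines). Control values ran from 31.6% to 80.8% with a median of 54.5% (n = 9), and smoked values from 9.96% to 42.7% with a median of 22.5% (n = 7). The difference was -25.42 points (SE 5.69, limma adjusted p = 0.275). The WT means were 43.2% and 28.1%, lower after CS as well. An intron of Kcnh1, a voltage-gated potassium channel gene, had 89.1% ± 5.03 in control and 67.9% ± 18.1 in smoked libraries (n = 9 and n = 8). Here smoked libraries scattered from 43.8% to 93.7% while controls stayed within 82.7% to 100%. WT sperm also had a lower mean after CS at this intron, 78.2% ± 13.6 and 62.6% ± 19.1 (n = 7 and n = 9), and control WT libraries ran from 59.004% to 100%. The Gm4792 region had 46.2% ± 16.3 and 28.6% ± 16.7 (n = 9 and n = 8), and its groups overlapped widely, with WT means of 45.8% and 40.9%.

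Among DMRs with at least 7 libraries in each group, the largest positive changes lay near Zfp488 and Zfp608, both zinc finger genes, in Exoc3l, near Slit3 and far from Cox7c. The Zfp488 region (chr14:33966869-33966928, 4 cytosines, 11836 bp from the start) ran from 10.6% to 71.4% in control libraries (median 48.1%, n = 8) and from 54.8% to 99.4% in smoked ones (median 73.3%, n = 8). All 8 smoked libraries lay above the control mean of 45.3%, and the difference was 28.28 points (SE 7.26, limma adjusted p = 0.496). Exoc3l, related to subunits of the exocyst that tethers secretory vesicles, had an exonic region (chr8:105292890-105293045, 5 cytosines). Its control values ran from 18.1% to 54.1% (median 33.2%, n = 10) and its smoked values from 32.9% to 92.2% (median 54.8%, n = 8), with 7 of 8 above the control mean. The difference was 25.02 points (SE 5.57, limma adjusted p = 0.25). Both regions were picked by this contrast, so the counts of libraries above the control mean describe them and do not test them. The WT means without and with CS were 56.1% and 49.04% at Zfp488 and 43.995% and 48.6% at Exoc3l.

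The region near Slit3, a secreted guidance cue for axons, had 15.95% ± 16.8 in control and 38.96% ± 20.5 in smoked libraries (n = 9 and n = 8). A single smoked library reached 84.9%, and the others lay between 20.1% and 46.5%. The Zfp608 region had 36.5% ± 13.2 and 60.2% ± 13.4 (n = 9 and n = 8). The Cox7c region, 374004 bp from that gene of a cytochrome c oxidase subunit, had 35.9% ± 17.8 and 54.7% ± 15.7 (n = 10 and n = 8). The WT means without and with CS were 53.2% and 50.6% at Zfp608 and 51.03% and 52.9% at Cox7c, nearer to the smoked than to the control Nrf2-/- means, and 18.5% and 18.7% at Slit3, nearer to the control mean. Among higher DMRs, the smallest unadjusted p-values after Exoc3l belonged to regions 300549 bp from Tbx15, a T-box transcription factor, and 291805 bp from Mki67, the gene of the proliferation marker Ki-67. Near Tbx15 the control values reached 9.59% at most and 3 of 7 smoked libraries lay between 26.7% and 45.3%. Near Mki67 the means were 13.4% ± 4.10 and 29.5% ± 12.3 (n = 10 and n = 7; limma adjusted p = 0.423), with WT means of 21.5% and 27.6%.

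**Figure D4:**
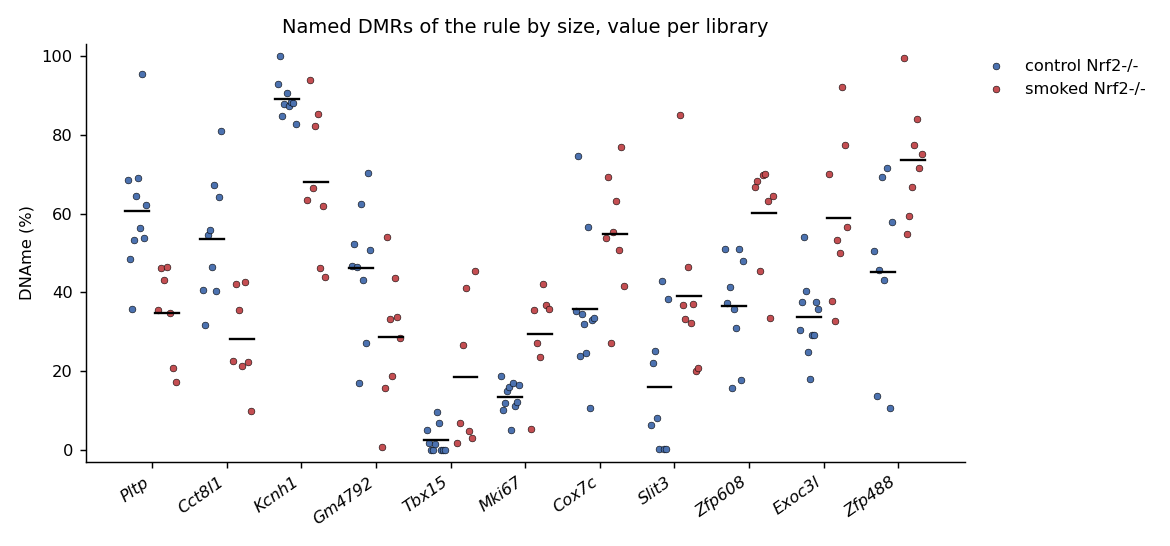
DNAme (%) of each Nrf2-/- library at the named DMRs that did not pass the adjusted threshold, ordered by the difference between groups; points are libraries (blue control, red smoked) and black lines are group means. The groups overlap at each region, for example 10.6% to 71.4% against 54.8% to 99.4% at Zfp488.

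The NRF2 pathway itself showed no change that passed. Each list took the regions that overlap its genes or lie within 1000 bp of their starts. Over all regions 5.76% had an unadjusted p below 0.05 and 3.73% were DMRs, and the counts of every list below are to be read against these shares. Of 14 genes (Nfe2l2, Keap1, the small Maf genes, Bach1 and Bach2 among them), 13 had a region, and of 37 regions limma gave 0 adjusted calls and 2 at an unadjusted p below 0.05 (against 5.76% of all regions), both higher, a promoter region of Mafg (0.358% ± 0.438 and 0.975% ± 1.05) and an intron of Bach2. The median of the list difference was -0.07 points, beside the -0.07 points of all regions. Keap1, whose protein retains NRF2, had promoter regions at 0.350% ± 0.383 (n = 10) and 0.475% ± 0.727 (n = 8) in control libraries and at 0.212% ± 0.285 (n = 9) and 0.291% ± 0.298 (n = 7) in smoked ones. The smallest unadjusted p of the list belonged to an intron of Bach2, a repressor that competes for the same elements, with 6.02% ± 2.04 and 8.42% ± 3.17 (n = 10 and n = 9, limma adjusted p = 0.862).

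Antioxidant and detoxification genes, many of them NRF2 targets, had 72 regions at 31 of 44 genes, with 0 adjusted calls, 1 higher and 3 lower at an unadjusted p below 0.05 (4 of 72, against 5.76% of all regions) and a median difference of -0.10 points. Hmox1, Srxn1, Gclc, Keap1 and Ahrr were chosen for their roles after the values were seen. Hmox1, which breaks down heme, had 0.419% ± 0.857 and 0.469% ± 1.11 at its promoter, Srxn1, which repairs peroxiredoxins, had 0.434% ± 0.343 and 0.357% ± 0.333 at one of its promoter regions, and Gclc, for a subunit of the enzyme that starts glutathione synthesis, had 35.7% ± 2.81 and 36.3% ± 2.48 at the more methylated of its promoter regions and 0.280% ± 0.387 and 0.129% ± 0.245 at the other. DMRs by size in the list were 3 of 72, near the 3.73% of all regions, each of them lower, in Tkt (a transketolase of the pentose phosphate pathway), Slc7a11 (a cystine importer) and Abcc3 (an export pump). At the Tkt intron the means were 77.6% and 66.1% (n = 5 and n = 7, difference -11.54 points, limma adjusted p = 0.823). The promoter region of Me1, which makes NADPH, had the smallest unadjusted p of the list, 1.22% ± 1.596 and 0.0276% ± 0.0730 (limma adjusted p = 0.658).

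Genes of the aryl hydrocarbon receptor pathway, which senses polycyclic hydrocarbons of smoke, and genes whose blood methylation marks smokers had 52 regions, with 0 adjusted calls and 1 higher at an unadjusted p below 0.05, against 5.76% of all regions. Ahrr, the repressor of that receptor, had 9.18% ± 7.93 and 9.38% ± 5.96 at one promoter region (n = 9 and n = 5) and 0.851% ± 0.814 and 0.694% ± 0.901 at another. Oxidative DNA damage repair genes had 21 regions, 0 adjusted and 0 unadjusted calls, and the smallest unadjusted p belonged to Ogg1, the glycosylase that removes oxidised guanine, at 96.7% ± 2.18 and 94.3% ± 3.28. DNA methylation writers and erasers had 53 regions, 0 adjusted calls and 2 higher and 1 lower at an unadjusted p below 0.05, with an exon of Tet2, a dioxygenase that oxidises methylcytosine, at 97.3% ± 2.06 and 95.0% ± 2.88.

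Imprinted genes methylated on the maternal allele had 66 regions, 0 adjusted calls, 2 higher and 2 lower at an unadjusted p below 0.05, and 2 DMRs by size, both lower, in Peg10 and Sgce. The gene with the smallest p was Gnas, with a promoter region at 1.22% ± 0.999 and 0.401% ± 0.503. Imprinted genes methylated on the paternal allele had 12 regions, 0 adjusted calls and 0 at an unadjusted p below 0.05. Spermatogenesis genes had 52 regions, 0 adjusted calls, 2 higher and 2 lower at an unadjusted p below 0.05, and 3 DMRs by size, higher in Kit and Piwil4 and lower in Spo11. All regions gave 5.76% at an unadjusted p below 0.05 and 3.73% DMRs. The intron of Kit, the receptor of stem cell factor that spermatogonia need, had 13.4% ± 6.80 in control and 24.9% ± 14.3 in smoked libraries (n = 9 each, limma adjusted p = 0.713).

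Bone morphogenetic protein and Noggin signalling genes, a list that includes Nog itself, had 93 regions. The called region 33060 bp from the start of Nog lies beyond the 1000 bp limit and is not among them. The 93 gave 0 adjusted calls, 1 higher and 4 lower at an unadjusted p below 0.05, against 5.76% of all regions, and 2 DMRs by size. An intron of Bmpr1b, a receptor of these ligands, was the lower one, with 97.8% ± 2.87 and 89.2% ± 12.9 (n = 7 each). The higher one, an intron of Bmp7, a ligand that Noggin binds, had 66.6% in control and 77.6% in smoked libraries (difference 10.98 points), while an exon of Bmp7 had 97.2% ± 1.38 and 95.4% ± 1.43. Nicotinic and dopamine genes (49 regions, Chrna4 with the smallest p), Hox genes (137 regions, an exon shared by Hoxd3 and Hoxd4) and pluripotency and germline genes (26 regions, Zfp42) had 0 adjusted calls as well, and 3, 5 and 1 regions at an unadjusted p below 0.05, against 5.76% of all regions. The median difference of the 12 lists lay between -0.19 and 0.06 points.

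The smoke change was then set beside that of WT sperm, with which it shares no library. As a difference between genotypes per region, limma gave 0 adjusted calls and 2637 regions at an unadjusted p below 0.05 (4.2%). Across all 62831 regions the change in Nrf2-/- and in WT sperm had r = 0.0278 (Spearman rho = 0.0267), and across the 1642 WT DMRs r = 0.0523 (rho = 0.0307). These are correlations across regions, which are not independent replicates and which share the same genome features.

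The DMR lists of the genotypes were overlaid. Of the WT DMRs, 490 were also DMRs in Nrf2-/- sperm, which is 29.8% of the WT list, against 3.73% of all regions called in Nrf2-/- sperm, and 20.9% of the Nrf2-/- list, against 2.61% of all regions called in WT sperm. At regions from 25 to 75% in control WT, 36.5% of WT DMRs and 23.4% of all such regions were Nrf2-/- DMRs. Of the 490 shared DMRs, 248 changed in the same direction (50.6%). Over all WT DMRs, the sign was shared at 50.9%, against 51.8% of all regions.

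**Figure D5:**
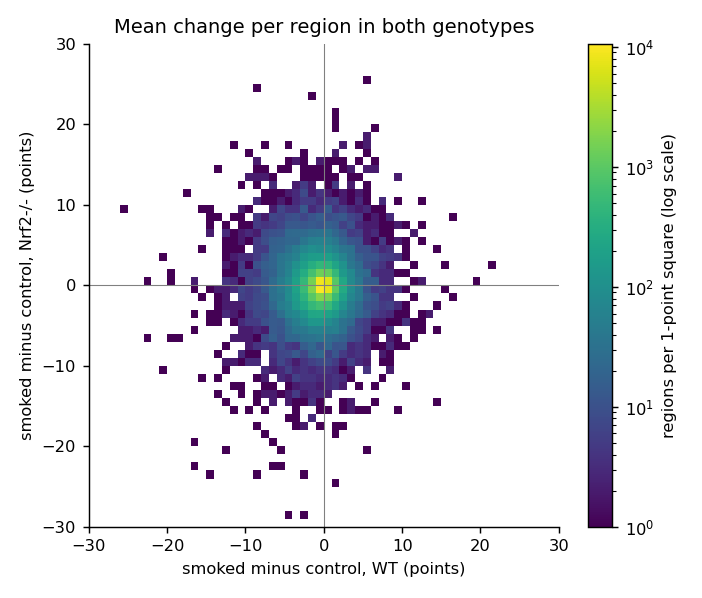
Mean smoke change of each region in WT sperm (horizontal axis, percentage points) and in Nrf2-/- sperm (vertical axis, percentage points); colour gives the number of regions per square of 1 point on a log scale, and 1 region outside the range is not drawn. The correlation was weak (r = 0.0278 across 62831 regions).

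The named regions were last looked up in prefrontal cortex of sons. Of 27 named regions, 26 had values in sons of control and of smoked Nrf2-/- sires, and 0 differed after adjustment over them (exact permutation test, two-sided), with 3 at an unadjusted p below 0.05, near Pltp and Gm4792 and in Kit. Of the 55933 regions with a value in all 16 brain libraries, 6.57% had such a p. The Pltp region had 54.3% ± 5.12 in sons of control and 45.9% ± 7.39 in sons of smoked sires (n = 8 each, exact permutation p = 0.019, 0.348 adjusted), lower as in sperm. The Gm4792 region had 43.4% ± 7.35 and 34.1% ± 8.78 (n = 8 each, exact permutation p = 0.0371, 0.348 adjusted), also lower as in sperm. The Kit intron had 39.7% ± 13.2 and 28.4% ± 6.73 (exact permutation p = 0.049, 0.348 adjusted), lower in brain where it was higher in sperm. The sign of the difference matched that in sperm at 8 of 26 regions, and at 50.5% of the 55893 regions with a value in all 16 brain libraries and a difference other than 0 in both tissues. At the Erg region brain was far below sperm, with 44.8% ± 9.55 and 34.01% ± 13.4. The sons carry a CAST/EiJ genome beside the C57BL/6J one, and strain differences at a CpG can enter a brain percent. The sample titles give no sire or litter of the sons. The tests took each son as a separate replicate, which brothers would not be.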

How the data were processed

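RRBS libraries of F0 sperm (7 groups) and of F1 prefrontal cortex (sons of Nrf2-/- sires) were used. Per the labels the authors aligned reads to mm10 with Bismark (version not given in the sources used here), and each deposited table gives methylation percent per CpG cytosine with a column per library. Read counts were not used here, so the depth and counting error behind a percent are unknown; the study's stated read minimum could not be checked. Columns carry facility numbers and were named by their order. 0 columns of values in the tables used were left out. F0 positions (3853391) all fell on a CpG of the GRCm38 reference, which is the same build.

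Region values needed 50% of a region's cytosines, and a test needed 3 values per group. limma 3.58.1 (R 4.3.3) was fitted over all 7 F0 sperm groups with Benjamini-Hochberg adjustment. Single values were compared by exact permutation tests over all regroupings, in Python 3.11.15 with numpy 2.4.6. Spearman correlations used scipy 1.17.1. The script was tested on simulated data. Genes were taken from the GENCODE basic annotation by overlap or the nearest protein-coding start.

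Regions were named by rule: adjusted p below 0.05, the 5 largest changes (with at least 7 libraries in each group) and the 3 smallest p-values among DMRs in each direction, and the smallest p of each gene list. Members and lists were chosen with earlier results of these data known. Alternatives were another joining distance (300 bp), at least 7 libraries per group, 2 groups alone, an arcsine scale, array weights, a trended prior, plain means, a change of 10 points and each library left out. Leaving out libraries for the spread and for the difference between genotypes, mean DNAme and spread without smoked column 3, the exact tests of the 4 called regions and the exact tests and signs over all brain regions were added after seeing the data.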

Additional observations from a re-analysis of the deposited data

Results flagged for a closer look

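Among 66 groups of values examined for a library far from the rest of its group, 12 had one. Chance alone flags about 1 in 20 where values are roughly normal, which region values cut at 0% or 100% are not. Where all other libraries have 0%, any higher value is flagged, as at the Hsp90ab1 promoter in control and the Me1 promoter in smoked libraries. Control column 10 had 1718943 positions with a value, against 966374 to 1352514 in the other control libraries, and smoked column 3 had 1547591, against 901592 to 1217058. Mean DNAme over cytosines with a value in all 19 libraries was 46.9% in control column 8 (others 47.5% to 48.2%) and 45.8% in smoked column 3 (others 47.2% to 48.2%). Control column 8 also had the largest distance to its group, 3.70 points against 2.91 to 3.29. Control column 4 had 7.86% at 7 mitochondrial positions, against 0.25% to 3.65%.

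At named regions, smoked column 6 had 99.4% at the Nog region, against 1.09% to 4.94% in the other smoked libraries. A smoked library had 84.9% at the Slit3 region (others 20.1% to 46.5%), and another had 6.86% at the Hoxd3 and Hoxd4 exon (others 0.0448% to 2.57%). At the Me1 promoter a control library had 4.89% (others 0.146% to 2.05%) and a smoked library had 0.193% (others 0%). At the Hsp90ab1 promoter a control library had 1.22% (others 0%).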

How the results depend on the processing

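Adjusted limma calls between smoked and control Nrf2-/- sperm numbered 4. They became 0 with regions joined at 300 bp (5214 regions at an unadjusted p below 0.05), 0 with at least 7 libraries of every group (2758), 0 in a fit of the 2 groups alone (2561) and 0 on the arcsine scale (3524). Array weights gave 3 calls, 2 of them among the 4, and a trended prior and plain means gave 4, the same 4. Leaving out 1 library at a time gave 0 to 5 calls, with 0 without smoked column 3 (3434 at an unadjusted p below 0.05), 1 without control column 1, 4, 5, 7 or 9 or smoked column 7 or 8, and 2 without control column 8 or 10 or smoked column 4 or 9. Counting only fits in which the library left out had a value there, the Tspan17 call held in 10 of 11, Erg in 9 of 18, Slc25a5-ps in 6 of 19 and Nog in 3 of 16. Joining at 300 bp gave Tspan17 2.09 points in place of 5.77. DMRs by size numbered 5766 with joining at 300 bp, 1004 with at least 7 libraries and 354 at a change of 10 points, and 2248 to 2642 with 1 library left out. The difference between genotypes had 0 adjusted limma calls with joining at 300 bp, at least 7 libraries and the arcsine scale (3522, 2028 and 2644 at an unadjusted p below 0.05) and 0 to 2 with 1 library left out. Mean DNAme differed by -1.22 to -0.302 points and the spread by -0.117 to 0.184 points with 1 library left out, and no such value passed the threshold. Why the region calls moved was not tested. No paired analysis was possible because the columns carry facility numbers that cannot be tied to replicate numbers. Without read counts, the depth behind a percent limits every value by an unknown amount.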

Other observations

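Coverage itself hardly separated the groups: 3 cytosines had a value in all 10 control and in 0 of 9 smoked Nrf2-/- libraries, and 0 cytosines had the reverse. By chromosome, the share of DMRs ranged from 2.77% (chromosome 19) to 5.72% (chromosome X) over the autosomes and X, and was 6 of 46 regions on chromosome Y.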
